A study of Rattus norvegicus with 12 samples.

Results

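The IGF system genes analysed here are the ligands Igf1 and Igf2, the receptors Igf1r and Igf2r, and the binding proteins Igfbp2, Igfbp3, Igfbp4, Igfbp5, Igfbp6 and Igfbp7. They were found by the RefSeq accession that the array files give for each probe, translated to the rat gene symbol, and all 10 had a probe, among 16581 named genes with a probe. Insulin-like growth factors are secreted peptides that act on muscle cells mainly through the receptor Igf1r, a tyrosine kinase that passes the signal to Irs adaptors, PI3-kinase and Akt. The receptor Igf2r takes up Igf2 for breakdown, and the secreted binding proteins hold the ligands outside the cell and limit or extend their action. In cultured myoblasts the ligands promote both growth and differentiation, and Igf2 made by the cells themselves is known to act on differentiating muscle cells.

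RNA was measured on 1-colour Agilent arrays in L6 cells, a rat skeletal muscle line that fuses into myotubes in culture. There were 4 groups of 3 arrays: a control group that received DMSO only, and groups that received 60 µM GR24, 60 µM pinosylvin or 60 µM resveratrol in DMSO, each for 24 h. The replicates were 3 independent experiments on the same batch of cells. The sample labels give 6 days of differentiation for all 12 arrays, while the methods of the study give another day. GR24 is a synthetic strigolactone, a compound modelled on a class of plant hormones. Pinosylvin and resveratrol are plant stilbenes that differ in structure by an additional hydroxyl group on resveratrol. Per array, between 58.0% and 64.3% of spots stood well above background, and the number of arrays limits the precision.

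Of 17 myotube markers, 15 had a probe, and all 15 were well above background on every array. Being above background does not tell the groups apart, and the levels of the markers differed between them. Levels below are log2 intensities relative to the 75th percentile of the array, so that 0 is the level at that percentile and a difference of 1 is a doubling. The mean level of the 15 markers was 4.97, 5.00 and 4.86 on the 3 control arrays. It was 3.10, 3.02 and 3.06 on the GR24 arrays. It was 5.14, 5.13 and 5.03 with pinosylvin and 4.60, 4.68 and 4.56 with resveratrol. With GR24, 13 of the 15 markers fell (median log2 fold change -1.51), where 25.5% of all tested probes fell, among them Myog, a transcription factor of differentiating muscle cells, with -5.83 (adjusted p = 5.53e-10). With pinosylvin 2 of the 15 rose and 1 fell, where 8.28% of all tested probes rose and 8.27% fell. With resveratrol 0 rose and 7 fell, where 7.99% rose and 8.99% fell. With GR24 15 of the 15 were lower than with pinosylvin, where 26.8% of all tested probes were. With GR24 13 were lower than with resveratrol, where 23.9% were. Between the stilbenes 10 were higher and 0 lower with pinosylvin, where 7.68% and 6.85% were. Fewer myotubes and less RNA per myotube cannot be told apart in these bulk samples, and the part of the markers in the results on IGF genes was not tested.

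A gene was represented by its probe with the highest mean level over the 12 arrays, and its other probes are given beside it. Testing was limited to probes that stood well above background in at least 1 group, on each of its 3 arrays. This left 9 of the 10 IGF genes, all but Igfbp5, whose probe was well above background on 0 of 12 arrays. A probe was called changed at an adjusted p under 0.05 over all 24279 tested probes. Shares of all tested probes include several probes of a gene and probes with no gene name. Counts of genes use only the brightest probe of each, so counts and shares are not matched. All 6 pairs of groups were compared in 1 fit. The IGF genes and the gene lists of this report were chosen with earlier results of these data known. Counts set beside the share of all tested probes are therefore descriptions and not tests of a set.

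The comparison of GR24 with control asks what the strigolactone changed in the IGF system of the myotubes. With GR24, 2 of 9 tested IGF genes rose, where 31.5% of all tested probes rose. In the same comparison 5 of 9 fell, where 25.5% of all tested probes fell. The median log2 fold change of the 9 genes was -0.54, and that of all tested probes was 0.027. The genes that fell were Igf2, Igf1r, Igf2r, Igfbp2 and Igfbp4, and the genes that rose were Igf1 and Igfbp6. The 2 genes that were not called were Igfbp3 and Igfbp7, of which Igfbp7 passed the threshold with the replicate number as a block, as given below. The call for Igf1 rests on a probe that goes against the other 3 tested probes of the gene, and the call for Igf1r is not shared by its other probe, as given below.

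**Figure D1:**
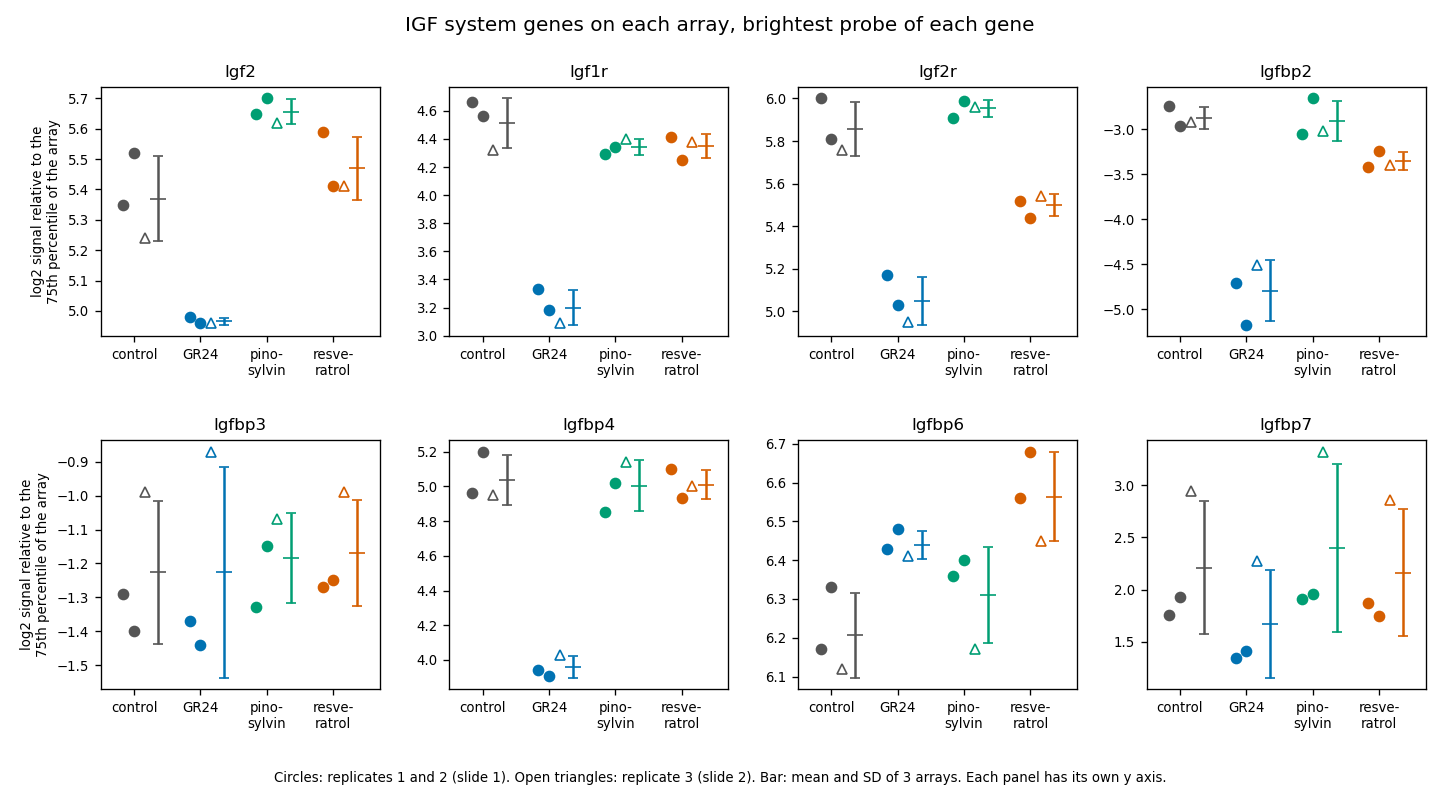
Level of Igf2, the receptors and the tested binding proteins on each array, brightest probe, as log2 intensity relative to the 75th percentile of the array, for control, GR24, pinosylvin and resveratrol (circles are arrays on slide 1, open triangles arrays on slide 2, bars the mean and SD of a group). Igf1r, Igf2r, Igfbp2 and Igfbp4 are lowest on the GR24 arrays, with group means of 3.20, 5.05, -4.80 and 3.96.

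Igf1 is the ligand that acts on Igf1r in growth and repair of muscle. It had 5 probes, of which 4 were tested, and they did not show the same change. The brightest, made to the transcript NM_001082478, read -0.85, -0.77 and -0.62 on the control arrays and -0.47, -0.58 and -0.43 on the GR24 arrays. The 2 groups did not overlap, and the GR24 arrays were the higher. It read -0.55, -0.50 and -0.27 with pinosylvin and -0.71, -0.46 and -0.55 with resveratrol. On this probe GR24 was 1.19-fold higher than control, with a log2 fold change of 0.25 ± 0.10 (SE, 95% interval 0.03 to 0.48, adjusted p = 0.0498). The call was lost in 14 alternative settings. Among them were the fits without any of the GR24 arrays in turn, without control 1 or 2, without pinosylvin 1 or 2 and without resveratrol 2 or 3. Over all 12 fits that left out an array, the value on this Igf1 probe ranged from 0.20 to 0.32 with adjusted p up to 0.159.

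The Igf1 probe made to NM_001082479, printed in 10 spots per array, read -0.79, -0.90 and -1.10 in the control group. It read -3.08, -3.09 and -3.36 with GR24. It read -1.13, -1.14 and -1.39 with pinosylvin and -2.45, -2.42 and -2.54 with resveratrol. The GR24 arrays lay below all others, the resveratrol arrays lay next, and pinosylvin and control lay close together at the top. This probe fell by 2.24 ± 0.11 log2 units with GR24, a 4.73-fold decrease (adjusted p = 5.71e-08). It was called in 27 of 27 alternative settings with a test, at values from -2.33 to -1.59. With resveratrol it was 2.90-fold lower than control (-1.54 ± 0.11, adjusted p = 1.73e-05). With pinosylvin the value was -0.29 (95% interval -0.54 to -0.04, adjusted p = 0.11), and with the replicate number as a block in the fit it passed the threshold (-0.29, adjusted p = 0.00523).

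The 2 other tested Igf1 probes were made to XM_006241194. The probe printed in 2 spots read -1.52, -1.58 and -1.82 in the control group and -4.79, -5.12 and -4.55 with GR24, where it was well above background on 2 of 3 arrays. It read -1.96, -1.91 and -1.79 with pinosylvin and -3.26, -3.22 and -3.22 with resveratrol. The order of the groups was the same as on the NM_001082479 probe, with no overlap of GR24 or resveratrol with control. Its log2 fold change was -3.18 with GR24 (adjusted p = 1.64e-08) and -1.60 with resveratrol (adjusted p = 3.83e-05). With pinosylvin it was -0.25 (adjusted p = 0.251). After normexp background correction the GR24 value on this probe was -1.70.

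The last tested Igf1 probe, printed in 1 spot, read -3.27, -3.67 and -3.20 in the control group and -4.30, -4.46 and -4.67 with resveratrol. With pinosylvin it read -3.39, -3.61 and -3.45. It was well above background on 0 of 3 GR24 arrays. With the lowest signal of any probe well above background standing in where the probe's own was lower, the GR24 mean of the processed signal was at least 4.27-fold lower than control, which is given with no test. The bound holds for the processed signal only, and none was computed for other background corrections. After normexp background correction the GR24 log2 fold change on this probe was -0.68, a smaller fold than the bound. That value rests on GR24 signals near background. With resveratrol this probe was 2.14-fold lower than control (adjusted p = 0.00284), and after normexp background correction the resveratrol value was -0.48. This call was lost within slide 1 alone (adjusted p = 0.0581). With pinosylvin the log2 fold change was -0.10 (adjusted p = 0.799). The fifth Igf1 probe was made to the same transcript as the brightest one. It was well above background on 1 of 12 arrays and was not tested, so the rise on the brightest probe has no second probe beside it. Thus 3 of 4 tested Igf1 probes fell with resveratrol. With GR24 2 of these fell and the third was not well above background. The brightest Igf1 probe did not fall with either compound. Which transcripts each probe detects in these cells was not tested.

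**Figure D2:**
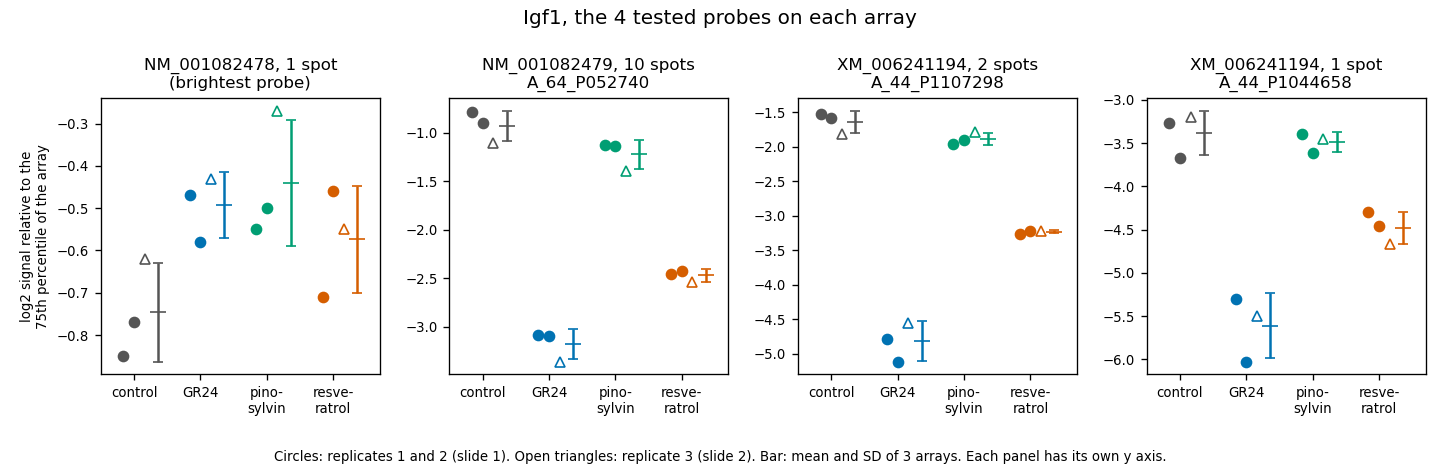
Level of the 4 tested Igf1 probes on each array, as log2 intensity relative to the 75th percentile of the array, for the 4 groups (circles are arrays on slide 1, open triangles arrays on slide 2, bars the mean and SD of a group). The mean of the brightest probe was -0.75 in the control group and -0.49 with GR24, while that of the NM_001082479 probe was -0.93 in the control group and -3.17 with GR24.

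Igf2 is the ligand that differentiating muscle cells make themselves, and it binds both Igf1r and Igf2r. Its brighter probe (NM_031511) read 5.35, 5.52 and 5.24 in the control group and 4.98, 4.96 and 4.96 with GR24. It read 5.65, 5.70 and 5.62 with pinosylvin and 5.59, 5.41 and 5.41 with resveratrol. Each GR24 array was below every other array, and each pinosylvin array was above every other array. Igf2 fell with GR24 by 0.40 ± 0.080 log2 units (SE), or 1.32-fold (adjusted p = 0.0013). The other Igf2 probe also fell, by 0.36 (adjusted p = 0.0284), a call lost without control 1 or 3 and without GR24 2 (adjusted p up to 0.127 over all settings). From the lowest group mean to the highest, the order on the brighter probe was GR24 at 4.97 ± 0.0093 (SD, n = 3), control at 5.37 ± 0.14, resveratrol at 5.47 ± 0.10 and pinosylvin at 5.66 ± 0.037. Control and resveratrol did not differ past the threshold, and neither did resveratrol and pinosylvin.

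Igf1r is the signalling receptor for both ligands. Its brighter probe (XM_008759500) read 4.66, 4.56 and 4.32 in the control group and 3.33, 3.18 and 3.09 with GR24. It read 4.29, 4.34 and 4.40 with pinosylvin and 4.41, 4.25 and 4.38 with resveratrol. The GR24 arrays lay apart below all 9 others, and the other 3 groups overlapped. On this probe Igf1r was 2.49-fold lower with GR24 than in the control group (log2 fold change -1.32 ± 0.097, 95% interval -1.53 to -1.10, adjusted p = 1.15e-06). The other Igf1r probe (NM_052807) read 1.81, 1.64 and 1.32 in the control group and 1.70, 1.75 and 1.65 with GR24, which overlap. Its log2 fold change was 0.11, with a 95% interval of -0.18 to 0.40 (adjusted p = 0.517). The mean over both Igf1r probes gave -0.60 in the comparison of GR24 with control, still past the threshold. The fall of Igf1r is therefore a result of 1 of its 2 probes.

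Igf2r clears Igf2 from outside the cell and also sorts lysosomal enzymes. Its probe (NM_012756, 10 spots per array) read 6.00, 5.81 and 5.76 in the control group and 5.17, 5.03 and 4.95 with GR24. It read 5.91, 5.99 and 5.96 with pinosylvin and 5.52, 5.44 and 5.54 with resveratrol. The 3 GR24 arrays were the lowest, the 3 resveratrol arrays came next, and the control and pinosylvin arrays overlapped at the top. Igf2r fell 1.75-fold with GR24 (-0.81 ± 0.082, adjusted p = 1.18e-05). The group means were 5.05 with GR24, 5.50 with resveratrol, 5.85 in the control group and 5.95 with pinosylvin. Of the neighbours in this order, only control and pinosylvin did not differ past the threshold.

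Among the brightest probes of the 9 tested genes, that of Igfbp2 had the widest range of group means, 1.92 log2 units. Igfbp2 is a secreted carrier of both ligands. Its probe (NM_013122) read -2.74, -2.97 and -2.92 in the control group and -4.71, -5.17 and -4.51 with GR24, where it was well above background on 2 of 3 arrays. It read -3.06, -2.66 and -3.02 with pinosylvin and -3.42, -3.24 and -3.40 with resveratrol. The GR24 arrays lay far below all others, and the resveratrol arrays lay below the control and pinosylvin arrays, which overlapped. Igfbp2 was 3.78-fold lower with GR24 than in the control group (-1.92 ± 0.16, 95% interval -2.29 to -1.55, adjusted p = 3.37e-06). At this low level the size depends on the background correction, and in the setting with normexp and quantile normalization the Igfbp2 value was -0.75, still past the threshold. Igfbp4 ran from -1.16 to -0.92 in the same comparison over all settings. The place of Igfbp2 before Igfbp4 therefore depends on the correction too.

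Igfbp4 is a binding protein that restrains the ligands until a protease cleaves it. Its probe (NM_001004274) read 4.96, 5.20 and 4.95 in the control group and 3.94, 3.91 and 4.03 with GR24. It read 4.85, 5.02 and 5.14 with pinosylvin and 5.10, 4.93 and 5.00 with resveratrol. The 3 GR24 arrays were the lowest and the other 3 groups overlapped, with means of 5.03, 5.00 and 5.01. Igfbp4 fell 2.11-fold with GR24 (-1.08 ± 0.095, adjusted p = 4.32e-06).

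Igfbp6 is a carrier that prefers Igf2 over Igf1. Its probe (NM_013104) read 6.17, 6.33 and 6.12 in the control group and 6.43, 6.48 and 6.41 with GR24. It read 6.36, 6.40 and 6.17 with pinosylvin and 6.56, 6.68 and 6.45 with resveratrol. Resveratrol and GR24 arrays overlapped, and both groups lay above every control array. With GR24 Igfbp6 was 1.17-fold higher than control (0.23 ± 0.086, adjusted p = 0.0413). The call was lost in 10 settings, including the fits without control 1 or 3, without any of the GR24 arrays in turn, without pinosylvin 1 and without resveratrol 1. Leaving out each of the 12 arrays gave Igfbp6 values from 0.19 to 0.29, with adjusted p up to 0.127.

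Igfbp7 is a matrix-associated protein that binds the ligands only weakly. Its probe (NM_001013048) read 1.76, 1.93 and 2.94 in the control group and 1.34, 1.41 and 2.27 with GR24. It read 1.91, 1.96 and 3.32 with pinosylvin and 1.87, 1.75 and 2.86 with resveratrol. In every group the third array, which was on the second slide, was the high one, and the groups overlapped. Slide 2 minus slide 1 was 1.09 in the control group, 0.89 with GR24, 1.38 with pinosylvin and 1.05 with resveratrol, where the median over all tested probes was -0.055. Without a block the value for GR24 against control was -0.54 ± 0.47 (adjusted p = 0.369). With the replicate number as a block Igfbp7 passed the threshold (-0.54 ± 0.10, 95% interval -0.77 to -0.31, adjusted p = 0.00141). Within slide 1 the value was -0.47 (adjusted p = 0.00318), and within slide 2, with 1 array per group, it was -0.67 with no test.

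Igfbp3 is the main carrier of the ligands in blood. Its probe (NM_012588) lay between -1.44 and -0.87 on all 12 arrays, and the 4 groups overlapped. Its log2 fold change with GR24 was 0.00, with a 95% interval of -0.36 to 0.36 (adjusted p = 0.993). Igfbp5, the carrier whose probe was made to NM_012817, was not well above background in any group, so that no level is given for it.

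**Figure D3:**
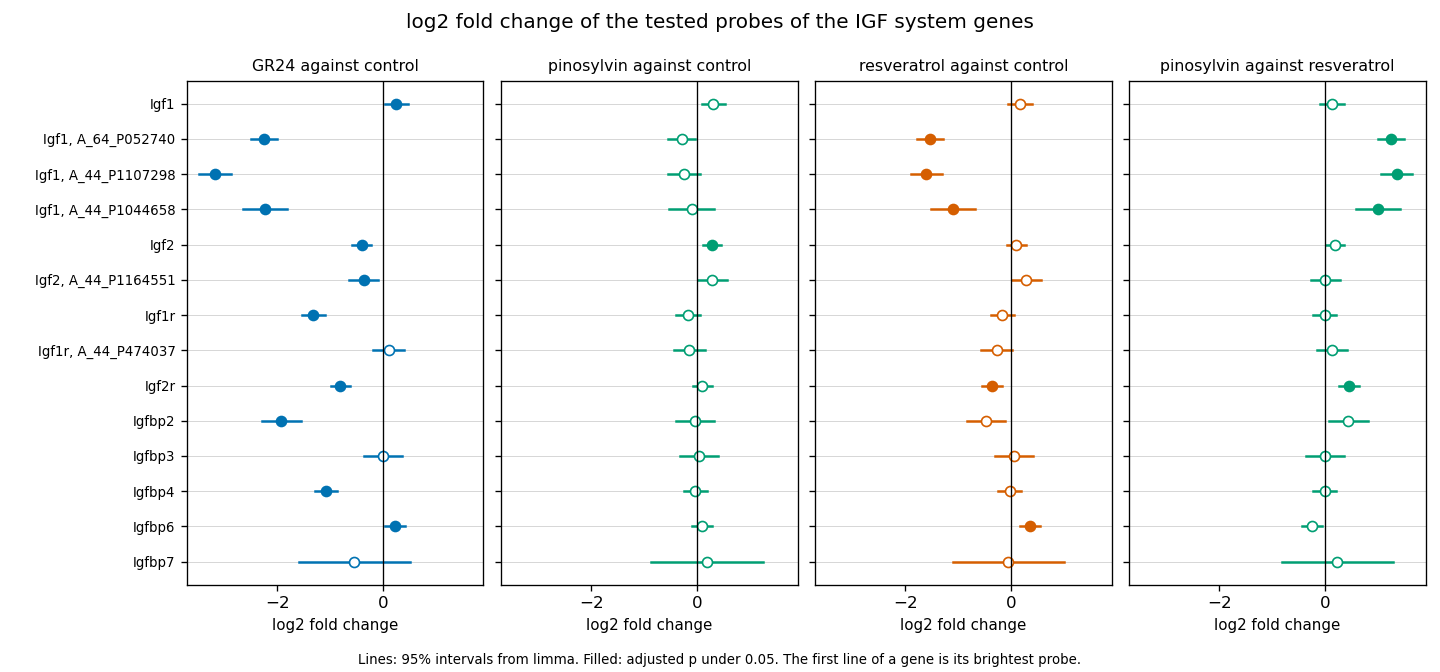
Log2 fold change of every tested probe of the IGF system genes for GR24, pinosylvin and resveratrol against control and for pinosylvin against resveratrol (lines are 95% intervals, filled circles are calls at an adjusted p under 0.05, the first line of a gene is its brightest probe). On the brightest probes the GR24 values run from -1.92 for Igfbp2 to 0.25 for Igf1, and the NM_001082479 probe of Igf1 lies at -2.24.

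The comparison of pinosylvin with control, which shares its control arrays with the other comparisons against control, gave few calls. With pinosylvin, 1 of 9 tested IGF genes rose, where 8.28% of all tested probes rose. In the same comparison 0 of 9 fell, where 8.27% of all tested probes fell. These shares are near the background and are not a result about the IGF genes. The gene that rose was Igf2, 1.22-fold higher than control (0.29 ± 0.080, 95% interval 0.11 to 0.46, adjusted p = 0.0331). The Igf2 call was lost in 9 settings, including the fits without control 1 or 3, without GR24 1 and without any of the pinosylvin arrays in turn. Leaving out each of the 12 arrays gave Igf2 values from 0.22 to 0.36, with adjusted p up to 0.108. The other Igf2 probe gave 0.29 as well, with an adjusted p of 0.144. The brightest Igf1 probe gave 0.31 ± 0.10 (adjusted p = 0.0624), and with the replicate number as a block it passed the threshold (0.31, adjusted p = 0.018), which made 2 genes higher in this comparison. With that block 16.3% of all tested probes were higher, so the count of 2 is read against a larger share. The NM_001082479 probe of Igf1 had the opposite sign in the same fit, so the direction of Igf1 with pinosylvin differs between probes. The remaining 7 genes lay between -0.17 for Igf1r and 0.19 for Igfbp7, and none passed the threshold.

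With resveratrol, 1 of 9 tested IGF genes rose, where 7.99% of all tested probes rose, and 1 of 9 fell, where 8.99% fell. These shares, too, are near the background. Igf2r fell 1.28-fold (-0.36 ± 0.082, 95% interval -0.54 to -0.17, adjusted p = 0.0135). The Igf2r call was lost in 4 settings, among them the fits without control 1 and without resveratrol 2, where the adjusted p reached 0.0538, and the value within slide 2, with no test, was -0.22. Igfbp6 rose 1.28-fold (0.35 ± 0.086, 95% interval 0.16 to 0.55, adjusted p = 0.0182). The Igfbp6 call was lost in 6 settings, among them the fits without control 1 or 3 and without resveratrol 1 or 2 (adjusted p up to 0.0729). For Igfbp2 all resveratrol arrays lay below all control arrays, and the value was -0.48 ± 0.16 (adjusted p = 0.0758). Igfbp2 passed the threshold without GR24 2 (adjusted p = 0.027), without GR24 3 (adjusted p = 0.0492) and when only the 6 arrays compared were fitted (adjusted p = 0.0267). Over all settings the Igfbp2 value ran from -0.53 to -0.19, with adjusted p up to 0.21. The brightest Igf1 probe gave 0.17 (adjusted p = 0.29), while the 3 other tested Igf1 probes fell, as given above. The Igf1r value was -0.17 on the brighter probe (adjusted p = 0.295) and -0.27 on the other, where the block fit passed the threshold (adjusted p = 0.0319). Igf2, Igfbp3, Igfbp4 and Igfbp7 had values from -0.05 to 0.10 and were not called.

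The direct comparisons ask whether the compounds differ from each other at the same dose and time. Between GR24 and pinosylvin, 0 of 9 IGF genes were higher with GR24, where 29.6% of all tested probes were. In this comparison 5 of 9 were lower, where 26.8% of all tested probes were, and the median of the 9 values was -0.72. The genes lower with GR24 than with pinosylvin were Igfbp2 (-1.88), Igf1r (-1.14), Igfbp4 (-1.05), Igf2r (-0.91) and Igf2 (-0.69). The largest adjusted p of these 5 was that of Igf2, 3.31e-05. Igf1 gave -0.05 on its brightest probe (adjusted p = 0.69), but -1.95 on the NM_001082479 probe (adjusted p = 1.99e-07). On the XM_006241194 probe in 2 spots Igf1 gave -2.93 (adjusted p = 3.82e-08), and -1.51 with normexp background correction. Igfbp2 went as low in size as -0.73 with normexp background correction, and Igf1r gave -0.44 as the mean over its probes. On its other probe Igf1r gave 0.26 (adjusted p = 0.126), which passed the threshold in the opposite direction with the replicate number as a block (adjusted p = 0.018). With the same block Igfbp6 was higher with GR24 than with pinosylvin (0.13, adjusted p = 0.0498), but not with slide as a block (adjusted p = 0.0807) or within slide 1 (0.08, adjusted p = 0.434). Within slide 2 the Igfbp6 value was 0.23. Igfbp6 also passed the threshold with quantile normalization, with or without normexp, with the series table, with or without slide as a block, and with the percentile over spots, at values up to 0.31 and adjusted p down to 0.000981. With the replicate number as a block Igfbp7 was lower with GR24 (-0.72, adjusted p = 0.000254). Igfbp7 was also lower within slide 1 (-0.56, adjusted p = 0.00167), and its value within slide 2 was -1.05.

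Between GR24 and resveratrol, a comparison with the same GR24 arrays, 0 of 9 IGF genes were higher with GR24, where 27.4% of all tested probes were, and 5 of 9 were lower, where 23.9% were. The same 5 genes as above were lower with GR24 than with resveratrol, Igfbp2 at -1.44, Igf1r at -1.15, Igfbp4 at -1.05, Igf2 at -0.50 and Igf2r at -0.45. The largest adjusted p of these was that of Igf2r, 0.000919. Igfbp2 gave -0.53 at the smallest, with normexp background correction, and Igf1r gave -0.38 as the mean over its probes, both past the threshold. The other Igf1r probe was higher with GR24 than with resveratrol (0.38, adjusted p = 0.0314), so the 2 Igf1r probes differ in direction here. That call was lost without GR24 1 or 2 and without resveratrol 2 or 3 (adjusted p up to 0.113 over all settings). On the NM_001082479 probe Igf1 was lower with GR24 than with resveratrol (-0.71, adjusted p = 0.000364, and -0.41 with normexp background correction). On the XM_006241194 probe in 2 spots the Igf1 value was -1.58, and -0.60 with normexp, past the threshold in both. The XM_006241194 probe in 1 spot, which was near background with GR24, is not compared here. With the replicate number as a block Igfbp7 was lower (-0.49, adjusted p = 0.00272), with -0.44 within slide 1 and -0.60 within slide 2.

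Between the 2 stilbenes, 1 of 9 IGF genes was higher with pinosylvin, where 7.68% of all tested probes were, and 0 of 9 were lower, where 6.85% were. The gene was Igf2r, 1.37-fold higher with pinosylvin than with resveratrol (0.46 ± 0.082, 95% interval 0.27 to 0.64, adjusted p = 0.00439). The stilbenes also differed on the 3 Igf1 probes other than the brightest, in a comparison where 10 of 15 myotube markers were higher with pinosylvin. On the NM_001082479 probe Igf1 was 2.37-fold higher with pinosylvin (1.25 ± 0.11, 95% interval 1.00 to 1.49, adjusted p = 7.21e-05). The XM_006241194 probes of Igf1 gave 1.35 (95% interval 1.05 to 1.64, adjusted p = 0.000132) and 1.00 (95% interval 0.58 to 1.42, adjusted p = 0.00589). The second of these Igf1 values was 0.47 with normexp background correction and lost its call within slide 1 alone (adjusted p = 0.0755). On the brightest Igf1 probe the difference was 0.13 (95% interval -0.09 to 0.35).

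For the other IGF genes the stilbenes did not differ past the threshold. The 95% interval of the difference between pinosylvin and resveratrol was 0.01 to 0.36 for Igf2 and -0.22 to 0.21 for Igf1r. It was 0.08 to 0.81 for Igfbp2, which passed the threshold without GR24 2 (adjusted p = 0.0425). Over all settings the Igfbp2 value ran from 0.16 to 0.52, with adjusted p up to 0.326. The 95% interval was -0.37 to 0.35 for Igfbp3 and -0.22 to 0.20 for Igfbp4. For Igfbp6 it was -0.44 to -0.06, and with the replicate number as a block Igfbp6 was lower with pinosylvin (-0.25 ± 0.051, adjusted p = 0.00862), which made 2 calls in this comparison. Within slide 1 the Igfbp6 value was -0.24 (adjusted p = 0.105), and within slide 2 it was -0.28. In all, 8 alternative settings called Igfbp6 in this comparison. With that block 14.4% of all tested probes were higher with pinosylvin and 11.6% lower. For Igfbp7 it was -0.82 to 1.28.

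On the brightest probes, the 3 IGF genes with the widest range of group means were Igfbp2 at 1.92, Igf1r at 1.31 and Igfbp4 at 1.07 log2 units. Igf1 had a wider range on other probes, and both the size for Igfbp2 and its place in this order depend on the background correction, as given above. As a description over the 12 arrays, their levels were set against 1 probe of every other named gene that was well above background on all 12 arrays. The levels most like those of Igfbp2 were of Ntn4 (r = 0.983), Ccsap (r = 0.982) and Hspb2 (r = 0.982). For Igf1r they were Celsr1 (r = 0.996), Tenm3 (r = 0.993) and Myh10 (r = 0.992). For Igfbp4 they were Epm2aip1 (r = 0.99), Hnrnph1 (r = 0.988) and Far1 (r = 0.988). Many genes were about as like, since 260 genes for Igfbp2, 381 for Igf1r and 269 for Igfbp4 had r above 0.95.

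Other genes of the pathway were read from 4 lists, of carriers and IGFBP-like genes, of IGFBP proteases and their inhibitors, of receptor-proximal signalling, and of the Igf2 locus and proteins that bind Igf2 mRNA. In all, 37 of their genes were tested. These lists, too, were chosen with earlier results of these data known. With GR24, 13 of the 37 rose and 12 fell, with a median of -0.03, where 31.5% of all tested probes rose and 25.5% fell. With pinosylvin 7 rose and 3 fell, where 8.28% and 8.27% of all tested probes did. With resveratrol 3 rose and 8 fell, where 7.99% and 8.99% did. The GR24 counts are near the share of all probes and are not a result about the pathway. Igfals, Igfbpl1, Grb14 and Igf2bp1 were not tested, and no probe was named for Pappa, Pappa2, Adam12, Grb10 and Igf2bp3.

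Of the 8 carriers and IGFBP-like genes, 6 were tested, and with GR24 0 rose and 4 fell (median -1.45), where 31.5% of all tested probes rose and 25.5% fell. The 4 that fell were matricellular proteins of the CCN family, which carry a domain like that of the binding proteins of IGF. Ccn5 read 3.95, 4.04 and 3.88 in the control group and 1.64, 1.67 and 1.67 with GR24, with no overlap (-2.30 ± 0.067, adjusted p = 1.72e-09). Ccn2 fell by 1.83 (adjusted p = 1.05e-08), Ccn1 by 1.66 (adjusted p = 1.27e-07) and Ccn4 by 1.24 (adjusted p = 1.03e-06). The carrier Igfbp1, at -0.09, and Ccn3, at 0.06, were not called. With pinosylvin Ccn5 rose (0.41, adjusted p = 0.0021) and Ccn2 fell (-0.29, adjusted p = 0.0182). The Ccn2 call was lost without control 1 or 2 and without pinosylvin 2 or 3 (adjusted p up to 0.0895 over all settings). With resveratrol Ccn4 fell (-0.53, adjusted p = 0.00264) and so did Ccn5 (-0.49, adjusted p = 0.000716). Between the stilbenes Ccn5 differed by 0.91 (adjusted p = 2.81e-05) and Ccn4 by 0.65 (adjusted p = 0.00101), higher with pinosylvin. Ccn3 was also higher with pinosylvin (0.39, adjusted p = 0.0156), a call that held in 18 of 27 alternative settings and was lost without pinosylvin 1 and without resveratrol 3 (adjusted p up to 0.396 over all settings). Ccn2 was lower with pinosylvin (-0.24, adjusted p = 0.0474), a call that held in 12 of 27 settings and in only 1 of the 12 fits that left out an array (adjusted p up to 0.168 over all settings).

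Of the 12 proteases and inhibitors that act on binding proteins, 9 were tested, and with GR24 2 rose and 4 fell (median -0.13), beside the same 31.5% and 25.5% of all tested probes. Stc1, a stanniocalcin of the family that inhibits the pappalysin proteases, read 1.24, 1.11 and 1.23 in the control group and -1.80, -2.09 and -1.94 with GR24, far apart (-3.14 ± 0.099, adjusted p = 2.72e-09). The related Stc2 fell by 1.01 (adjusted p = 3.3e-05). Of the metalloproteases, Adamts1 fell by 1.53 (adjusted p = 1.78e-07) and Mmp14 by 1.07 (adjusted p = 4.6e-07). The smallest Adamts1 value over the alternatives was -0.72, still past the threshold. Pinosylvin and GR24 differed in direction for Stc1, which rose with pinosylvin (0.73, adjusted p = 0.000657). In all, 4 of the 9 rose and 2 fell with pinosylvin, where 8.28% and 8.27% of all tested probes did. Only the 4 with the largest change are named. In the same comparison Mmp2 rose (0.36, adjusted p = 0.00539) while Stc2 (-0.54, adjusted p = 0.0103) and the inhibitor Timp1 (-0.30, adjusted p = 0.035) fell. The Timp1 call with pinosylvin was lost without control 1 or 2, without GR24 1 and without any pinosylvin array in turn (adjusted p up to 0.122 over all settings), and the Stc2 call was lost with only the 6 arrays compared (adjusted p = 0.0586). With resveratrol Timp1 fell (-0.55, adjusted p = 0.00158), as did Stc2 (-0.42, adjusted p = 0.034) and Mmp14 (-0.28, adjusted p = 0.0214), and Stc1 rose (0.33, adjusted p = 0.0458). Of these, the Stc1 call held in 13 of 27 alternative settings and was lost without any control array in turn, without GR24 3, without pinosylvin 1 or 2 and without resveratrol 2 or 3 (adjusted p up to 0.162 over all settings). The Stc2 call with resveratrol held in 19 and was lost without control 1 or 2, without pinosylvin 1 and without any resveratrol array in turn (adjusted p up to 0.119 over all settings). The Mmp14 call held in 20 and was lost without control 1 or 2 and without resveratrol 2 or 3 (adjusted p up to 0.0886 over all settings).

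Of the 22 signalling genes next to the receptor, 20 were tested, and with GR24 11 rose and 3 fell (median 0.37), again beside 31.5% and 25.5% of all tested probes. Insr, the insulin receptor, which can pair with Igf1r, read -3.74, -3.87 and -3.35 in the control group and -2.29, -2.58 and -2.34 with GR24 (1.25 ± 0.15, adjusted p = 5.25e-05). The smallest Insr value over the alternatives was 0.70, past the threshold. Grb2, an adaptor, rose by 0.82 (adjusted p = 0.000287), while its other probe gave -0.15 and was not called. Socs2, an inhibitor of growth hormone signalling, fell by 1.61 (adjusted p = 4.99e-07), with -0.80 as its smallest value over the alternatives. With pinosylvin Pik3r3 (0.67, adjusted p = 0.0275) and Inppl1 (0.24, adjusted p = 0.0487) rose, and the Inppl1 call held in 9 of 27 alternative settings and in only 1 of the 12 fits that left out an array (adjusted p up to 0.174 over all settings). The Pik3r3 call held in 20 and was lost without any control array in turn and without pinosylvin 2 or 3 (adjusted p up to 0.144 over all settings). With resveratrol the regulatory subunit Pik3r1 (0.59, adjusted p = 0.00716) and the adaptor Irs1 (0.51, adjusted p = 0.0284) rose. Socs2 (-0.50, adjusted p = 0.00911) and Akt2 (-0.29, adjusted p = 0.0191) fell in that comparison. The Irs1 call was lost without control 1 or 3 and without resveratrol 1 or 3 (adjusted p up to 0.117 over all settings), and the Akt2 call without control 1 or 2 and without resveratrol 3 (adjusted p up to 0.0799 over all settings). The Socs2 call was lost with quantile normalization (adjusted p = 0.0603).

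Of the 4 genes of the Igf2 locus and mRNA binding list, 2 were tested. H19, the noncoding RNA transcribed next to Igf2, read 7.89, 8.02 and 7.82 in the control group and 6.85, 6.95 and 6.78 with GR24. It read 8.10, 8.11 and 8.01 with pinosylvin and 7.61, 7.75 and 7.57 with resveratrol. As for Igf2, the GR24 arrays were the lowest of all, and H19 fell with GR24 by 1.05 ± 0.078 (adjusted p = 1.22e-06). It also fell with resveratrol (-0.27, adjusted p = 0.0417), where Igf2 gave 0.10. That H19 call held in 17 of 27 alternative settings and was lost without control 1 or 2, without GR24 1, without pinosylvin 1 or 2 and without resveratrol 1 or 3 (adjusted p up to 0.14 over all settings). With pinosylvin H19 gave 0.16 (adjusted p = 0.2), which passed the threshold with the replicate number as a block (adjusted p = 0.0278). Between the stilbenes H19 was 0.43 higher with pinosylvin (adjusted p = 0.00488).

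Lists of markers of other cell states and cell types were read beside these results. Which cells gave their signal was not tested, so a level does not show that such cells were present. Of 9 tested markers of undifferentiated or cycling cells, 2 rose and 5 fell with GR24, where 31.5% of all tested probes rose and 25.5% fell. Those that fell were Mki67, Cdk1, Ccnb1, Pcna and Myf5. Those that rose were Id2, from a mean of -0.64 to 0.58, and Hes1, from -1.91 to -1.25. The list mean therefore does not stand for all its genes. The mean level of the 9 was 1.01, 0.90 and 0.96 on the control arrays and 0.03, 0.12 and -0.06 on the GR24 arrays. It was 0.32, 0.33 and 0.20 with pinosylvin, where 1 rose and 6 fell beside 8.28% and 8.27% of all tested probes. It was 0.65, 0.77 and 0.63 with resveratrol, where 1 rose and 4 fell beside 7.99% and 8.99%. Of 7 fibroblast markers, 1 rose and 6 fell with GR24, beside the same GR24 shares of all probes, with mean levels of 5.27, 5.32 and 5.23 in the control group and 4.59, 4.61 and 4.49 with GR24. The control means of the 7 fibroblast markers ran from -2.17 for Pdgfra to 7.98 for Col1a2. With pinosylvin 1 of the 7 rose and 3 fell, beside 8.28% and 8.27% of all tested probes. With resveratrol 1 rose and 2 fell, beside 7.99% and 8.99%. Of 4 adipocyte markers on the array, 0 were tested. The part of these markers in the values of the IGF genes was not tested.

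Promoter sequences were read because 5 IGF genes fell with GR24. RefSeq promoters of the rat genome GRCr8 were found for all 10 genes, with 2 for Igf2, and the 250 bases before the start that the promoter table uses were searched on both strands. For 4 of the 10 genes, Igf1, Igf2, Igf1r and Igfbp7, these bases overlap the gene's own extent in the gene table, by 210 of 250 bases for Igf1r. The letters CACGTG, an E-box chosen after the sequences were read, occurred in 5.59% of all 33469 promoters. The median GC content of all promoters was 51.2%, while those of Igf1r, Igf2r and Igfbp2 had 79.6%, 68% and 64%, so this share is no matched background. CACGTG occurred in the promoters of Igf1r, Igf2r and Igfbp2, of which the last 2 fell with GR24 on their only tested probe and Igf1r fell on 1 of 2 probes. It was absent from those of Igf1, Igf2, Igfbp3, Igfbp4, Igfbp5, Igfbp6 and Igfbp7, among which Igf2 and Igfbp4 also fell. The letters TGACNNNGC, the core of an antioxidant response element, occurred in 10.1% of all promoters and in 0 of the 11 promoters of the IGF genes. CAGCTG, the E-box letters of many muscle promoters, occurred in 12% of all and only in that of Igfbp6 among the IGF genes. A match is a description of letters and not a site. The 2 promoters with CACGTG that lie outside the gene are shown 5′ to 3′ on the plus strand, with CACGTG in capitals, for Igf2r at chr1:50526628-50526877 and Igfbp2 at chr9:81864561-81864810.
Igf2r: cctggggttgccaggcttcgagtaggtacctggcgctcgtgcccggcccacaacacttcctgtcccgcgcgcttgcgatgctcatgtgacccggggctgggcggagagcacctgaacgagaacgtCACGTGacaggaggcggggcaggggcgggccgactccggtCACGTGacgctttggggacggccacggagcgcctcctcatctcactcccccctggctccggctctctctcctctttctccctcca
Igfbp2: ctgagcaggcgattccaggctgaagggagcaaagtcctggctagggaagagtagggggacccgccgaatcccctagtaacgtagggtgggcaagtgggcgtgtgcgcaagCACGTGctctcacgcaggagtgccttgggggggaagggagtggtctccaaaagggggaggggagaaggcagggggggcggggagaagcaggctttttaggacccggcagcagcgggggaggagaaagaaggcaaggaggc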

How the data were processed

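RNA of 12 arrays (4 groups of 3) was analysed. The authors deposited Agilent Feature Extraction output (12.0.0.7 per the submitters' processing notes), of which the processed signal, an intensity from which the software had taken off background on each array, was used. A series table of log2 values that the authors deposited was used as an alternative, for 25848 probes. Each of its columns correlated best with the log2 median signal of its own array (r 0.9994 to 0.9997), and the column medians ran from 9.208 to 9.245.

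Values computed here were log2 of that signal, less each array's 75th percentile (all probes), with outlier-marked spots missing and spots of a probe averaged. The 75th percentile of the signal was 4045 to 5707, 58.0% to 64.3% of spots were well above background, and 0 were saturated. Of 45598 probes, 21109 (46.3%) were named through the RefSeq accession, and 24279 were tested. limma 3.58.1 in R 4.3.3 fitted a mean per group over all 12 arrays, with Benjamini-Hochberg adjustment over all tested probes of a comparison and a threshold of 0.05. With 3 arrays per group, standard errors and p-values rest on a spread shared over groups and moderated over probes. The script was tested on simulated data with independent noise on each array and no slide effect. That simulation does not cover the difference between slides in the real arrays.

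The replicate numbers were read as the 3 independent experiments. Deviations from the group mean correlated at 0.191 to 0.744 in the 18 pairs of arrays with the same number, all on the same slide. They correlated at 0.222 to 0.475 in the 12 pairs with different numbers on the same slide and at -0.663 to -0.324 in the 24 pairs on different slides. The numbers were taken to pair the arrays because every pair with the same number correlated, but the values separate the slides and not the numbers within slide 1. Replicates 1 and 2 of every group were on slide 1 and replicate 3 on slide 2, so replicate 3 and slide 2 cannot be told apart.

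Also tried were normalization by quantiles, normexp correction (offset 50, median signal and median local background), the series table, other filters and percentiles, only the 6 arrays compared, replicate or slide as a block, slides separately, eBayes with trend and robust, other probes of a gene, outlier spots kept, and leaving out each array. All IGF genes were named. From each pathway list, up to 4 called genes with the largest change per comparison against control were named, and genes needed to say which were not called. The values of 1 gene of the signalling list, counted in its totals, are not reported here. The members and lists were chosen with earlier results of these data known.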

Additional observations from a re-analysis of the deposited data

How the results depend on the processing

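Igf2, Igf2r, Igfbp2 and Igfbp4 kept their direction and call in GR24 against control in all settings with a test, with ranges of -0.47 to -0.28, -0.87 to -0.71, -2.08 to -0.75 and -1.16 to -0.92. Igf1r did so too (-1.41 to -0.60), on its brighter probe or the mean of both. No setting in that range used its other probe alone, which gave 0.11 (adjusted p = 0.517). Igf1 was reversed where its probes were averaged or the probe with the most spots was used: -1.85 and -2.24 in GR24 against control, -1.01 and -1.54 in resveratrol against control, and -0.84 and -0.71 in GR24 against resveratrol. This follows from the probes used. The averages of -1.85 and -0.84 include the XM_006241194 probe in 1 spot. That probe was well above background on 0 of 3 GR24 arrays, so the size of these 2 averages is not exact. Of 1614 values of the IGF genes under alternatives, 78 had another sign but were called in neither setting.

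The count of 1 IGF gene called in pinosylvin against control was 0 with no filter, with only 6 arrays and within slide 1, and 2 with the replicate block, with slide as a block and with the series table with slide as a block. Leaving out 1 array gave 0 to 1. The count of 2 in resveratrol against control was 0 with no filter, 1 with only 6 arrays, 3 with the mean over probes and with the probe with the most spots, and 0 to 3 leaving out 1 array. The count of 1 in pinosylvin against resveratrol was 2 with quantile normalization, normexp with quantile normalization, the series table with or without slide as a block, the percentile over probes above background on all 12 arrays, the replicate block, slide as a block, trend and robust, the mean over probes and the probe with the most spots. Leaving out 1 array gave 1 to 2. The count for GR24 against control ranged from 5 to 8, that for GR24 against pinosylvin from 4 to 7 and that for GR24 against resveratrol from 4 to 6. Leaving out 1 array gave 5 to 7 in the first and 5 in the others. Of the pathway genes, 10 were called with pinosylvin, and 5 with no filter, 4 with only 6 arrays, 6 within slide 1 and 5 to 9 leaving out 1 array. With resveratrol 11 were called, and 5, 6 and 7 in those settings and 5 to 11 leaving out 1 array. The cause was not tested, except that fewer arrays and more probes tested were part of the settings. Calls over all tested probes moved with the settings as well. In pinosylvin against control, 2010 probes rose and 2009 fell of 24279 in the main fit. With no filter 1026 rose and 1383 fell of 45598. With the replicate block 3954 rose and 2993 fell of 24279, and within slide 1 it was 1719 and 1843. The changes in these counts are therefore not a result about the IGF or pathway genes.

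The replicate block moved 6 of 54 values of the brightest probes and 3 of 30 of the other probes across the threshold, all given in the report, and changed no other call of an IGF gene. Of the pathway genes it gave 26 calls with GR24, 13 with pinosylvin and 14 with resveratrol, with 0 lost. The genes gained were Pik3r2 with GR24, Socs2, Socs3 and H19 with pinosylvin, and Ccn3, Ctsd and Grb2 with resveratrol. The shares of all tested probes under the block, higher and lower, were 36.2% and 30.3% with GR24, 16.3% and 12.3% with pinosylvin and 14.1% and 13.8% with resveratrol. The series table with slide as a block, the percentile over spots and the probe with the most spots were chosen after seeing the data. With the filter for probes above background on all 12 arrays, Igfbp2 had no value. Signal near background limits Igfbp2 and 2 of the Igf1 probes.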
